A study of Mus musculus with 11 samples.

Results

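The genes of MHC class II antigen presentation were followed here through 11 arrays of mouse rectal mucosa. The set was H2-Aa, H2-Ab1 and H2-Eb1, which encode chains of the class II molecule, Cd74, H2-DMa, H2-DMb1 and Ciita. A gene was taken where the platform annotation gave a transcript cluster, the array's unit of measurement, its symbol alone, and 6 of the 7 were measured in this way among 19944 genes tested. H2-DMb1 shares its single cluster with the neighbouring copy H2-DMb2, so no value is given for it.

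MHC class II molecules present peptides from proteins taken up into endosomes to CD4 T cells. An α chain and a β chain assemble in the endoplasmic reticulum on the invariant chain, which fills the groove and guides the complex to endosomes, where proteases cut the invariant chain away and H2-DM exchanges its last fragment for a peptide. The genes are switched on by CIITA, a coactivator that does not bind DNA itself but sits on RFX, CREB and NF-Y proteins bound to the X and Y boxes of their promoters. In the gut, dendritic cells, macrophages and B cells express class II constitutively, and epithelial cells can be induced to express it by interferon γ.

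The mice were of the α6ΔIEC-TAM model, in which tamoxifen is meant to remove Itga6, the gene of the integrin α6 chain, from intestinal epithelial cells. Tamoxifen went to 4 mutant mice and to 3 wild-type controls, and a further 4 mutant mice received NaCl. Tamoxifen at 10 mg/day or NaCl was given by gavage from the age of 8 weeks over 5 days, in 2 doses, and all mice were analysed at 10 weeks, 15 days after the first gavage. Each array held total RNA of the whole rectal mucosa of 1 animal, and the Cre driver, the strain and an untreated wild-type or NaCl-treated wild-type group are not among the labels used here. Of the mice, 1 of 4 was male in each mutant group and 2 of 3 among the controls.

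The groups are named by their labels throughout. Itga6 itself had log2 levels between 11.75 and 11.93 on the arrays labelled mutant tamoxifen, above the control range of 11.15 to 11.52 and the mutant NaCl range of 11.28 to 11.49. It was 0.42 higher than in controls on the log2 scale (limma, adjusted p = 0.00949), which goes against the label of a deletion. The sources do not say which exons its transcript cluster covers, and every direction below rests on the group labels. Epithelial markers were measured on every array, with a mean log2 level of 11.87 to 12.19, as were smooth muscle markers at 11.51 to 12.19, so the tissue held more than epithelium.

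Promoter sequence is shown for the α and β chain genes whose levels are described first and for a pair of class II paralogs, H2-Eb2 and H2-Ob, that passed no test. The stretches are the 150 bases before the RefSeq start in GRCm38.p6, written 5′ to 3′ on the strand of the gene, and capitals mark the X box core (AACNGATG) and the Y box (ATTGG) or its reverse (CCAAT). H2-Aa lies at chr17:34287824-34287973 on the minus strand, and the other 3 lie on the plus strand, H2-Eb1 at chr17:34305717-34305866, H2-Eb2 at chr17:34325525-34325674 and H2-Ob at chr17:34238755-34238904.
H2-Aa: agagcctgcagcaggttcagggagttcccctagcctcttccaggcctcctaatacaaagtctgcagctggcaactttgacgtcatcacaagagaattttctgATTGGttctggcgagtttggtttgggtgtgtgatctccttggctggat
H2-Eb1: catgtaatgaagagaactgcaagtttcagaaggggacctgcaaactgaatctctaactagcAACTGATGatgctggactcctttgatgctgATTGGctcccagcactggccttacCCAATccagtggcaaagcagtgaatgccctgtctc
H2-Eb2: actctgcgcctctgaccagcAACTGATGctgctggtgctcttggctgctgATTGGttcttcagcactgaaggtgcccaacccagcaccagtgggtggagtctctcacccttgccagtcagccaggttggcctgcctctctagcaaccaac
H2-Ob: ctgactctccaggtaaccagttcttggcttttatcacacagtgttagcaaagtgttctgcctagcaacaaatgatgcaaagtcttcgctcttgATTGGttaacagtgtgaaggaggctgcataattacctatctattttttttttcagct

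In H2-Eb1 the X box core began 89 bases and the Y box 59 bases before the start, with 22 bases between them, and a reverse Y box stood 35 bases before the start. In H2-Eb2 the same letters stood 130 and 100 bases before the start, again with 22 bases between them. Of these letters H2-Aa and H2-Ob had the Y box alone, 48 and 57 bases before the start, and H2-Oa had it at 43 bases. An X box that differs from AACNGATG in any base was not sought. A search of both strands for these letters, in which the motifs do not overlap each other, found the X box core in 2.32% of all 32851 windows of 300 bases around gene starts, the Y box in 37.4% and both in 0.88%. H2-DMa has 2 windows, of which the first held neither motif and the second a Y box 198 bases before the start. Windows with both motifs, at any spacing, were thus uncommon and a Y box was common. A match describes these letters only.

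All 6 measured class II genes were lowest on average in mutant mice given tamoxifen, intermediate in control mice given tamoxifen and highest in mutant mice given NaCl. The step down from mutant NaCl to mutant tamoxifen passed the test for 6 of 6 genes, at 1.83-fold to 2.42-fold. The step from controls to mutant tamoxifen passed it for 2 of 6, H2-Aa and Cd74, and the step between the reference groups for 0 of 6. In whole tissue, fewer cells of a type and less RNA per cell cannot be told apart.

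**Figure D1:**
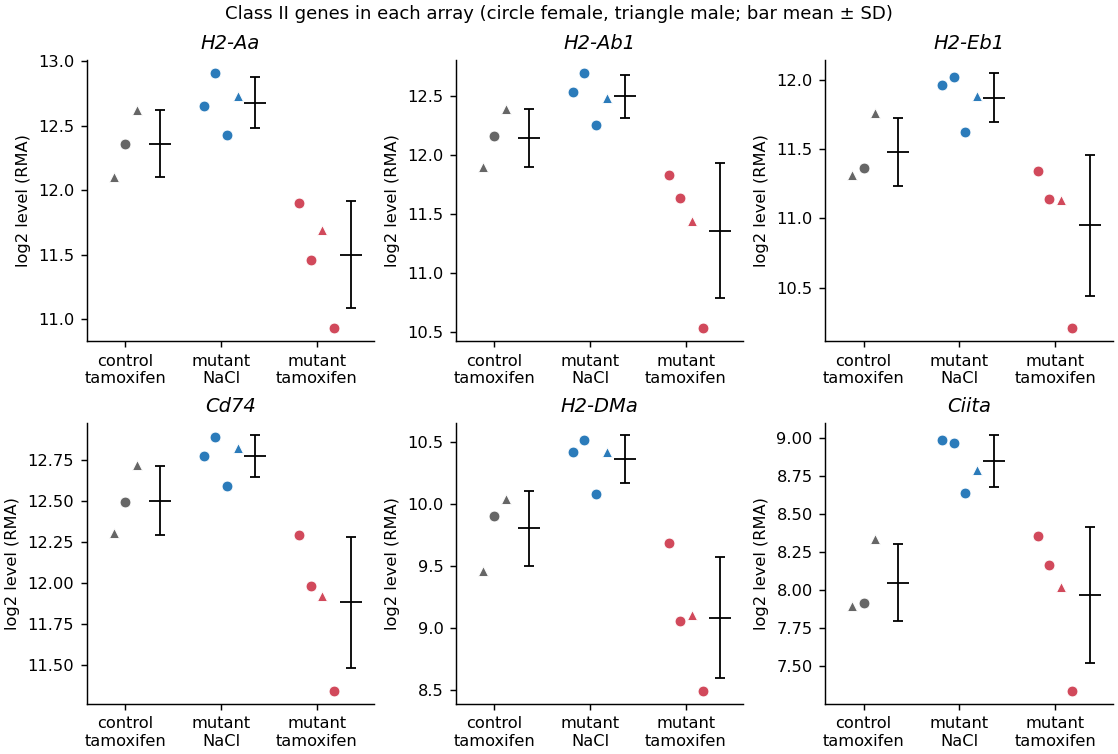
Log2 RMA level (vertical axis) of the 6 class II genes on each of the 11 arrays, with control tamoxifen, mutant NaCl and mutant tamoxifen along the horizontal axis. Circles are female mice, triangles male mice, and the bar is the group mean ± SD; the 4 mutant tamoxifen arrays lie below the 4 mutant NaCl arrays for every gene, and 1 mutant tamoxifen array is the lowest of all each time.

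H2-Aa, the α chain of the I-A molecule, had log2 levels of 11.90, 11.46, 11.69 and 10.93 on mutant tamoxifen arrays 1 to 4, of 12.10, 12.36 and 12.62 on control tamoxifen arrays 1 to 3, and of 12.65, 12.91, 12.43 and 12.73 on mutant NaCl arrays 1 to 4. Every mutant tamoxifen array lay below every other array, and the reference groups overlapped. The group means were 11.50 ± 0.417 (SD, n = 4), 12.36 ± 0.26 (SD, n = 3) and 12.68 ± 0.201 (SD, n = 4).

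H2-Ab1, the β chain that pairs with H2-Aa, had levels of 11.83, 11.64, 11.44 and 10.53 in mutant tamoxifen, 11.90, 12.16 and 12.39 in controls, and 12.54, 12.70, 12.26 and 12.49 in mutant NaCl. The order of groups was that of its partner, and the highest mutant tamoxifen array came close to the lowest control. H2-Eb1, the β chain of the I-E molecule, read 11.34, 11.14, 11.13 and 10.21 in mutant tamoxifen, 11.31, 11.36 and 11.76 in controls, and 11.96, 12.02, 11.62 and 11.88 in mutant NaCl. Here mutant tamoxifen overlapped the controls and stayed below mutant NaCl. H2-Ea, the α chain of I-E, which RefSeq lists as a pseudogene, was flat at 5.27 to 5.47 over all 11 arrays.

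Cd74, the invariant chain, read 12.29, 11.98, 11.92 and 11.34 in mutant tamoxifen, 12.30, 12.49 and 12.72 in controls, and 12.77, 12.89, 12.59 and 12.82 in mutant NaCl. Its mutant tamoxifen and control arrays were separate by the last decimal alone. H2-DMa, the α chain of the H2-DM peptide exchanger, read 9.68, 9.05, 9.10 and 8.49 in mutant tamoxifen, 9.46, 9.90 and 10.04 in controls, and 10.42, 10.51, 10.08 and 10.42 in mutant NaCl. Mutant NaCl stood above all other arrays here, and mutant tamoxifen array 1 lay within the control range.

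Ciita, the transactivator, read 8.36, 8.17, 8.02 and 7.34 in mutant tamoxifen, 7.90, 7.92 and 8.34 in controls, and 8.99, 8.97, 8.64 and 8.79 in mutant NaCl. Unlike the chain genes it had all 3 controls inside the mutant tamoxifen range, and mutant NaCl stood above both groups. Its group means were 7.97 ± 0.446 (SD, n = 4), 8.05 ± 0.252 (SD, n = 3) and 8.85 ± 0.169 (SD, n = 4).

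The spread within groups was itself uneven. SDs ran from 0.398 to 0.576 over the 6 genes in mutant tamoxifen, from 0.21 to 0.301 in controls and from 0.128 to 0.201 in mutant NaCl. Mutant tamoxifen array 4, from a female, was the lowest of the 11 arrays for 6 of 6 genes, and mutant NaCl array 2 was the highest for 5 of 6. In mutant tamoxifen array 4 the mean of H2-Aa, H2-Ab1, H2-Eb1 and Cd74, each centred on its own mean over arrays, was -1.24, against -0.15, -0.43 and -0.44 in the other mutant tamoxifen arrays. Within each group the highest and the lowest array were the same for H2-Aa, H2-Ab1, H2-Eb1, Cd74 and H2-DMa: mutant tamoxifen 1 and 4, control 3 and 1, and mutant NaCl 2 and 3.

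Mutant and control mice that both received tamoxifen differ by genotype. In this comparison H2-Aa and Cd74 were lower in the mutants, and the other chains and H2-DMa had lower estimates that did not pass the threshold. Ciita differed by less than its error. Of the 6 genes 2 were called lower and 0 higher, against 11.8% of all genes called lower, 12.9% called higher and 24.6% called in either direction. Mutant tamoxifen lay wholly below the controls for 3 of 6, H2-Aa, H2-Ab1 and Cd74, against 20.1% of all genes. The median log2 difference was -0.66 over the class II genes and -0.02 over all genes.

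H2-Aa was lower by a log2 difference of -0.81 ± 0.22 (SE; 95% interval -1.3 to -0.33), or 1.76-fold, with an adjusted p of 0.0213 in limma. Cd74 differed by -0.60 ± 0.2 (interval -1.03 to -0.16; 1.51-fold; adjusted p = 0.0485). Estimates for H2-Ab1 and H2-DMa were of like size with wider errors, at -0.78 ± 0.28 (adjusted p = 0.0655) and -0.72 ± 0.25 (adjusted p = 0.0615). H2-Eb1 gave -0.46 ± 0.25 (interval -1.01 to 0.08; adjusted p = 0.196). For Ciita the difference was -0.06 ± 0.23, with an interval of -0.56 to 0.45 that also holds values as large as the estimate for H2-Eb1 (adjusted p = 0.881).

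The call of 2 genes rested on single animals and on the model. With female arrays alone, or without any single one of mutant tamoxifen array 3, control array 2 and control array 3, 0 of 6 passed, and the H2-Aa difference was then -0.93, -0.90, -0.74 and -0.72 with adjusted p of 0.129, 0.0614, 0.124 and 0.0552. The Cd74 call was lost in 14 of 23 alternatives and the H2-Aa call in 5. Ciita turned to 0.12 without mutant tamoxifen array 4, to 0.06 without control array 3 and to 0.04 with females alone.

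**Figure D2:**
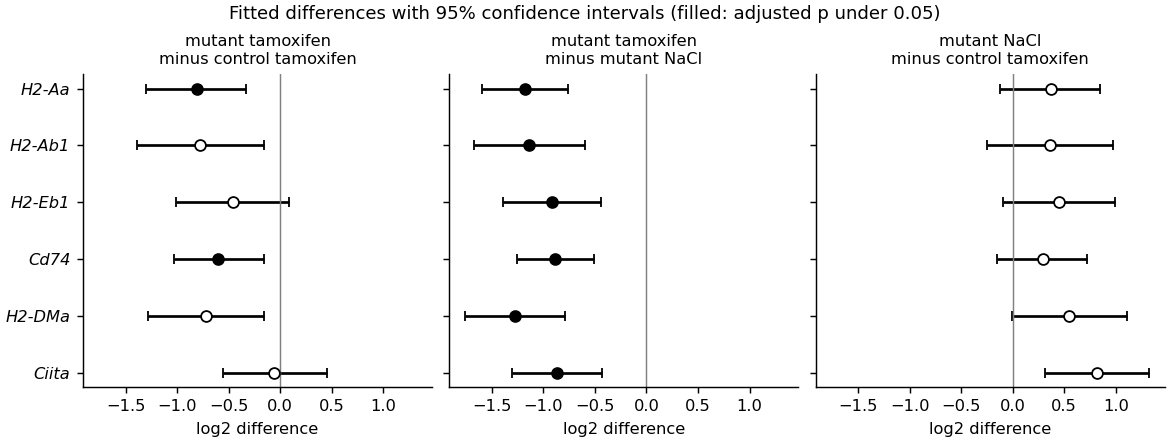
Fitted log2 difference (horizontal axis) of each class II gene in the 3 comparisons, with its 95% confidence interval as a line; filled points have an adjusted p under 0.05. All 6 points are filled for mutant tamoxifen minus mutant NaCl, 2 are filled against control tamoxifen, and none for mutant NaCl minus control tamoxifen, where all 6 estimates are above 0.

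Tamoxifen and NaCl were compared within the mutant genotype, a comparison in which the intended deletion and the drug cannot be told apart. The chains, the invariant chain, the peptide exchanger and the transactivator all fell in mice given tamoxifen. Of the 6 genes 6 were called lower, against 10.7% of all genes called lower, 12.5% called higher and 23.2% in either direction. The groups did not overlap for any of the 6, against 12.6% of all genes with mutant tamoxifen wholly below. The median was -1.03, and -0.01 over all genes.

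H2-DMa fell most, by 1.28 ± 0.22 on the log2 scale (SE; 2.42-fold, adjusted p = 0.00252 in limma). H2-Aa fell by 1.18 ± 0.19 (2.27-fold, adjusted p = 0.00174) and its partner H2-Ab1 by 1.14 ± 0.24 (2.20-fold, adjusted p = 0.00694). Their intervals, -1.76 to -0.79, -1.6 to -0.76 and -1.67 to -0.6, overlap widely. H2-Eb1 fell by 0.92 ± 0.21 (adjusted p = 0.0109), Cd74 by 0.89 ± 0.17 (adjusted p = 0.00439) and Ciita by 0.87 ± 0.2 (adjusted p = 0.00987). All 6 calls were made in each of 23 alternatives, which included leaving out each array in turn. The comparison uses the same mutant tamoxifen arrays as the comparison with controls, so the lower values in both are not independent.

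The mutant NaCl and control tamoxifen groups differ in genotype and in drug at once, and neither is meant to carry the deletion. All 6 class II genes had higher estimates in mutant NaCl, with a median of 0.41 against -0.01 over all genes, and 0 of 6 passed the threshold in limma, against 0% of all genes. At an unadjusted limma p under 0.05 there were 1 of 6, Ciita, and 1624 of 19944. Mutant NaCl lay wholly above the controls for 2 of 6, Ciita and H2-DMa, against 2.82% of all genes.

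Ciita gave the largest estimate, 0.82 ± 0.23 on the log2 scale (interval 0.31 to 1.32; 1.76-fold; limma adjusted p = 0.516). H2-DMa followed with 0.55 (interval -0.01 to 1.11; adjusted p = 0.621). The chains and Cd74 were nearer to 0, at 0.45 for H2-Eb1, 0.37 for H2-Aa, 0.36 for H2-Ab1 and 0.29 for Cd74, with adjusted p between 0.671 and 0.749. This contrast is also the difference between the other two comparisons, so a larger fall against mutant NaCl than against controls was not shown for any of the 6.

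The class II pathway beyond these genes was described with a list of 29 genes, of which 28 were measured. Against controls 3 rose, 5 fell and 20 did not pass (median 0.02), and against mutant NaCl 3 rose, 2 fell and 23 did not pass (median -0.02). The list median stayed beside that of all genes in both comparisons. Of all genes, 12.9% rose and 11.8% fell against controls, and 12.5% rose and 10.7% fell against mutant NaCl.

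**Figure D3:**
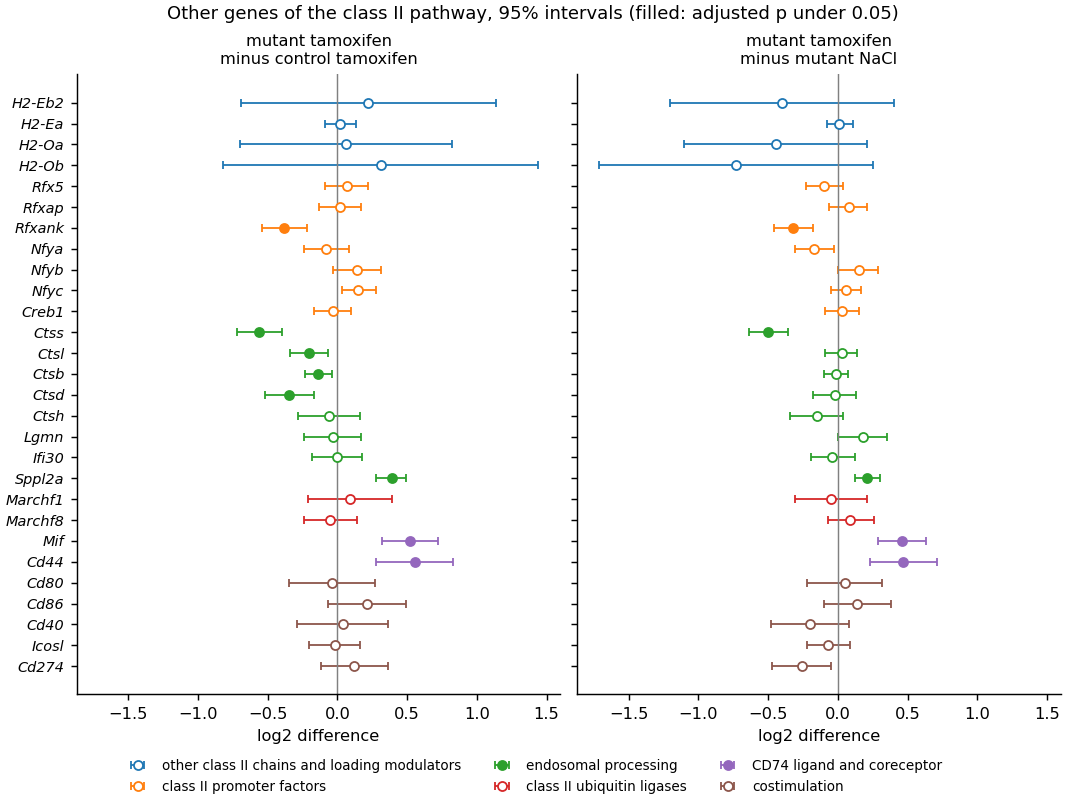
Fitted log2 difference (horizontal axis) of 28 other class II pathway genes in mutant tamoxifen against control tamoxifen (left) and against mutant NaCl (right), with 95% confidence intervals; colours give the role and filled points have an adjusted p under 0.05. Ctss and Rfxank lie to the left and Sppl2a, Mif and Cd44 to the right in both panels, and the widest intervals belong to H2-Ob, H2-Eb2 and H2-Oa.

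Among the proteases that work on the invariant chain, Ctss, encoding cathepsin S, which makes the late cuts in antigen presenting cells, read 11.10, 11.16, 11.09 and 10.86 in mutant tamoxifen, 11.65, 11.59 and 11.62 in controls, and 11.62, 11.54, 11.53 and 11.52 in mutant NaCl. Both reference groups lay together and above all mutant tamoxifen arrays. It fell by 0.56 ± 0.071 against controls (limma adjusted p = 0.000607) and by 0.50 ± 0.062 against mutant NaCl (adjusted p = 0.000425). Sppl2a, the intramembrane protease that clears the remaining invariant chain stub, rose by 0.39 (adjusted p = 0.000567) and 0.21 (adjusted p = 0.00496). Of the 8 genes of endosomal processing, 4 fell and 1 rose against controls, where Ctsl, Ctsb and Ctsd, lysosomal cathepsins named after their values were seen, fell by 0.20, 0.14 and 0.35 (adjusted p = 0.0324, 0.0472 and 0.0102). Beside these counts, 11.8% of all genes fell and 12.9% rose against controls. Those 3 cathepsins did not pass against mutant NaCl. In mutant NaCl they too lay wholly below the controls, at -0.23, -0.12 and -0.32, without passing (limma adjusted p = 0.516, 0.539 and 0.51).

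Of the 7 promoter factors, Rfxank, a subunit of the RFX complex, was the one that passed the test, and it fell by 0.38 ± 0.072 against controls (adjusted p = 0.00434) and by 0.32 ± 0.063 against mutant NaCl (adjusted p = 0.00474). Its partner subunit Rfx5 read 8.09 to 8.16 in mutant tamoxifen, 8.00 to 8.16 in controls and 8.07 to 8.30 in mutant NaCl, and passed neither test (adjusted p = 0.528 and 0.291). The ligand and coreceptor of CD74 moved the other way from Cd74 itself. Mif, the cytokine that binds CD74, was read from the cluster with the highest mean of its 3. It rose by 0.52 ± 0.089 (limma adjusted p = 0.0024) and 0.46 ± 0.077 (adjusted p = 0.00207). Every mutant tamoxifen array lay at 11.70 to 11.99 and every other array at 11.25 to 11.53. Cd44, a receptor that signals with CD74, rose by 0.56 (adjusted p = 0.00902) and 0.47 (adjusted p = 0.0105).

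H2-Ob, H2-Oa and H2-Eb2, class II paralogs, passed neither test. H2-Ob is the β chain of H2-DO, which restrains H2-DM and is best known from B cells. It read 8.02, 8.03, 7.84 and 7.11 in mutant tamoxifen, 7.03, 6.81 and 8.13 in controls, and 9.59, 8.46, 8.62 and 7.24 in mutant NaCl. The groups overlapped, and mutant NaCl array 4, among the highest for the classical genes, was low for this one. The difference was 0.31 against controls (interval -0.82 to 1.44; limma adjusted p = 0.701) and -0.73 against mutant NaCl (interval -1.71 to 0.25; adjusted p = 0.284). H2-Oa, its partner, gave 0.06 (adjusted p = 0.914) and -0.44 (adjusted p = 0.336).

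H2-Eb2, whose promoter stretch carries the same spaced X and Y boxes as H2-Eb1, read 7.34, 7.43, 7.18 and 6.76 in mutant tamoxifen, 6.58, 6.54 and 7.36 in controls, and 8.73, 7.42, 7.52 and 6.64 in mutant NaCl. Its lowest arrays were control 1, control 2 and mutant NaCl 4, whereas the lowest for H2-Eb1 was mutant tamoxifen 4. The difference was 0.22 against controls (adjusted p = 0.733) and -0.40 against mutant NaCl (adjusted p = 0.489). These intervals, -0.69 to 1.14 and -1.2 to 0.4, are too wide to tell a fall such as that of H2-Eb1 from no change.

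Markers of the cells that carry class II moved unevenly with it. B cell markers (13 of 14 measured) had a mean log2 level of 7.42 to 8.00 over the mutant tamoxifen arrays, 6.94 to 7.84 over controls and 7.01 to 9.04 over mutant NaCl. Of the 13, 1 rose and 0 fell against controls, beside 12.9% and 11.8% of all genes. Against mutant NaCl 0 passed in limma (1 at an unadjusted p under 0.05), beside 23.2% of all genes. Cd72, a B cell surface receptor, was the 1 that rose against controls, by 1.44 ± 0.24 (limma adjusted p = 0.00197). In mutant NaCl it lay wholly above the controls too, by 0.91, without passing (adjusted p = 0.516). Its difference of 0.53 between mutant tamoxifen and mutant NaCl did not pass (adjusted p = 0.0909). Mutant NaCl array 4 had a B cell mean of 7.01 with H2-Aa at 12.73, and mutant NaCl array 1 had 9.04 with H2-Aa at 12.65. The part of B cells in the class II result was not tested.

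Dendritic cell markers (10 of 10 measured) had a mean of 7.01 to 7.25 in mutant tamoxifen, 7.14 to 7.35 in controls and 7.30 to 7.55 in mutant NaCl. The lowest array of this list was mutant tamoxifen array 4, as for the class II genes. Against mutant NaCl 3 of 10 fell, beside 10.7% of all genes, and 0 rose. They were Xcr1 and Clec9a, markers of cross-presenting dendritic cells, and Cd209a, at -0.59, -0.42 and -0.43 (limma adjusted p = 0.000562, 0.00296 and 0.0196), and were named after their values were seen. Against controls these 3 genes differed by -0.09, 0.01 and -0.01 (limma adjusted p = 0.471, 0.927 and 0.977). In mutant NaCl each lay wholly above the controls, by 0.50, 0.44 and 0.42, without passing (adjusted p = 0.399, 0.399 and 0.528). Clec9a read low throughout, at 5.22 to 6.07. The genes that fell against controls were 2 of 10, beside 11.8% of all genes. They were Clec10a, by 0.65 (adjusted p = 0.022), and Zbtb46, by 0.22 (adjusted p = 0.0406). In mutant NaCl both lay wholly below the controls too, at -0.62 and -0.16, without passing (limma adjusted p = 0.516 and 0.604). Between mutant tamoxifen and mutant NaCl they differed by -0.03 and -0.06 (adjusted p = 0.921 and 0.565). The part of dendritic cells in the class II result was not tested.

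Macrophage markers (14 of 14 measured) had a mean of 9.45 to 9.60 in mutant tamoxifen, 9.57 to 9.88 in controls and 9.49 to 9.66 in mutant NaCl. Against controls 4 fell, the efferocytosis receptor Mertk by 0.82, the mannose receptor Mrc1 by 0.33 and, named after their values were seen, Cd68 and C1qc, while the myeloid genes Cd14 and Itgam rose by 0.82 and 0.47 (adjusted p = 0.000762, 0.009, 0.000541 and 0.015). Against mutant NaCl Mertk fell and Cd14 and Itgam rose. The shares over all genes were 11.8% lower and 12.9% higher against controls, and 10.7% lower and 12.5% higher against mutant NaCl. T cell markers (10 of 12 measured) had 0 genes past the threshold in limma in both comparisons, with 0 and 1 at an unadjusted p under 0.05.

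Neutrophil and smooth muscle markers also differed between the groups. Neutrophil markers (10 of 12 measured) had a mean of 7.35 to 7.57 in mutant tamoxifen against 6.93 to 7.08 in controls and 6.92 to 6.99 in mutant NaCl, and 7 of 10 rose in both comparisons. Smooth muscle markers fell for 10 of 10 in both, with a mean of 11.51 to 11.66 against 12.06 to 12.19 and 11.89 to 12.19. Of 12 epithelial markers 3 rose against controls, the keratins Krt18, Krt19 and Krt20, and 5 against mutant NaCl, and 0 of 8 endothelial markers passed in limma in either comparison, with 0 and 1 at an unadjusted p under 0.05. Beside these counts, 12.9% of all genes rose and 11.8% fell against controls, and 12.5% rose and 10.7% fell against mutant NaCl. On mutant tamoxifen array 4, the lowest for class II, the smooth muscle mean was 11.66 and the neutrophil mean 7.56. Both were within or at the edge of the range of its group. The part of these shifts in the class II result was not tested.

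**Figure D4:**
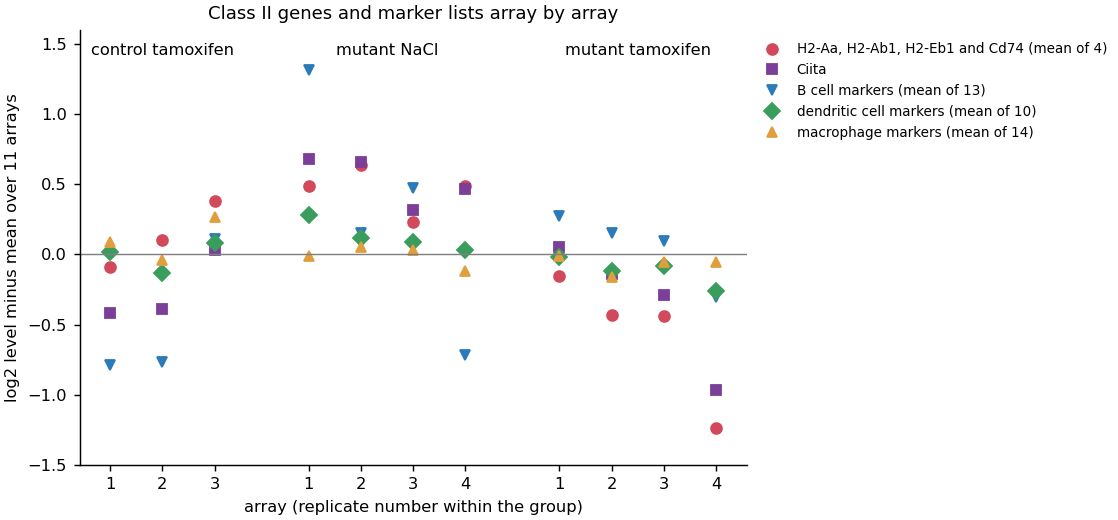
Log2 level minus its mean over 11 arrays (vertical axis) for the mean of H2-Aa, H2-Ab1, H2-Eb1 and Cd74, for Ciita and for the mean of 3 marker lists, on each array (horizontal axis, by group and replicate number). The B cell points swing most, from 9.04 to 7.01 in mean level within mutant NaCl, where the class II points stay between 0.23 and 0.64; mutant tamoxifen array 4 holds the lowest class II, Ciita and dendritic cell points.

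Interferon γ induces Ciita, so its pathway was listed as well, and 14 of 17 genes were measured. Ifng itself stayed between 6.07 and 6.38 on all arrays (adjusted p = 0.477 and 0.185 in limma for mutant tamoxifen against controls and mutant NaCl). Against controls 1 gene of the list rose, Jak2, by 0.29 (limma adjusted p = 0.0182), and 3 fell. These were the receptor chains Ifngr1 and Ifngr2, by 0.17 and 0.21, and Nlrc5, the class I counterpart of Ciita, by 0.22 (adjusted p = 0.0162, 0.0138 and 0.0347). Nlrc5 has 19 clusters, and the value is that of the cluster with the highest mean alone. Against mutant NaCl Jak2 rose and Ifngr1 and Cxcl9 fell, the last named after its values were seen, with a list median of -0.18. Called over all genes were 12.9% higher and 11.8% lower against controls, and 12.5% higher and 10.7% lower against mutant NaCl. The list median against controls was 0.14, above 0 where that of the class II genes was below it. For the 7 measured targets of interferon γ alone it was 0.43, with 6 estimated higher, beside 8645 of 19944 over all genes. Of these targets 0 were called higher and 1 lower. Between mutant NaCl and controls 0 of 14 passed in limma, with 8 at an unadjusted p under 0.05. Of the 7 measured targets of interferon γ in the list, 6 lay wholly above the controls in mutant NaCl, with a median of 0.72, beside 2.82% of all genes. Ciita lay wholly above them as well, while Ifng overlapped them and did not pass (0.18, limma adjusted p = 0.539). Irf1, a transcription factor induced by interferon γ, differed in mutant tamoxifen by -0.10 from controls and by -0.29 from mutant NaCl (limma adjusted p = 0.606 and 0.0969). The part of interferon γ in the class II result was not tested.

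The genes whose pattern over the 11 arrays was most like that of H2-Aa, H2-Ab1, H2-Eb1 and Cd74 were sought among 16491 genes. Likeness was the mean absolute difference between centred log2 levels, which has a median of 0.43 over all of them. The 8 closest were Nlrp6 at 0.148, Stmn2 at 0.188, Abi3 at 0.194, Hsd11b2 at 0.195, Smim24 at 0.197, Eno3 at 0.198, Acad11 at 0.199 and Ly75 at 0.201. The other class II genes stood at 0.135 for H2-DMa, closer than any of the 8, and at 0.217 for Ciita, further away. Nlrp6, an inflammasome sensor of the intestinal epithelium, read 10.42, 10.33, 10.11 and 9.59 in mutant tamoxifen, 10.48, 10.81 and 10.68 in controls, and 10.98, 10.74 and 10.67 on mutant NaCl arrays 1, 3 and 4, with array 2 slightly higher. It was chosen for this likeness, so its order over the arrays adds nothing to that of the class II genes. Ly75, an endocytic receptor of dendritic cells, read 8.91, 8.90, 8.92 and 8.34, then 8.90, 9.19 and 9.26, then 9.45, 9.45, 9.41 and 9.23 in the same order.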

How the data were processed

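RNA from the rectal mucosa of 11 mice was measured on Affymetrix Mouse Gene 1.0 ST arrays, 1 per animal. The authors deposited log2 values for 35556 transcript clusters, made with RMA in Expression Console per the labels (version 1.1, with images read in Command Console version 2.0, per the series design text). Partek appears in the submitters' processing notes with no stated role. The genome build was not given in the sources used here, nor were the authors' tests. RMA equalises the distribution of each array, so levels are relative within an array, and the number of arrays limits the precision.

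Clusters were named by the platform annotation: of 23410 that it lists, 21797 have 1 symbol and 1613 have several, and a further 12146 stay unnamed. Symbols were checked against RefSeq, where 21774 matched as they were, 2 were updated by accession and 21 kept the annotation's symbol. The cluster with the highest mean was kept for the 1001 genes with several, which gave 19944 genes. Promoter sequences are RefSeq's in GRCm38.p6, and 6 of the 9 class II chain, loading and transactivator genes looked up had one.

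All arrays were fitted with limma 3.58.1 (R 4.3.3, tables in Python 3.11.15) with group and sex terms and a variance trend on mean level. Tests were two-sided at 0.05 on p-values adjusted over the 19944 genes by Benjamini and Hochberg's method. Differences are first group minus second. "Called" means past the threshold, and groups do not overlap where every array of one lies beyond every array of the other. Folds are 2 to the power of the size of the difference. The steps were tested on simulated data. Replicate numbers follow accession order and only name arrays. Each p-value sets a group difference against a spread between animals estimated over all groups together. The SDs of the class II genes differed between the groups.

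All members were described on every array. From each of 13 lists (152 of 167 genes measured) the counts, the median and at most the 4 genes with the smallest p against controls were taken, plus H2-Ea, H2-Oa, H2-Ob, H2-Eb2, Ctss, Rfx5, Ifng and Irf1 and the 8 most like genes. The likeness ranking left out sex-linked and predicted genes, small RNAs, antigen receptor segments, and vomeronasal or olfactory receptors. The members and lists were chosen with earlier results of these data known. Alternatives were females alone, a model without sex, fits on the compared groups, removal of the lowest 25% or 50% of genes, median centring, a second quantile normalisation, no variance trend, robust variances, array weights, the mean of a gene's clusters, all clusters tested, and leaving out each of 11 arrays.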

Additional observations from a re-analysis of the deposited data

How the results depend on the processing

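The fall of the class II genes against mutant NaCl kept its direction and its call for 6 of 6 genes under all 23 alternatives, with log2 differences of -1.48 to -1.07 for H2-DMa to -1.01 to -0.66 for Ciita and a highest adjusted p of 0.0471, for H2-Eb1. Against mutant NaCl and among the reference groups no direction turned, and 0 of 6 genes were called between mutant NaCl and controls under any alternative. Against controls the count of called genes was 2. It was 4 with no sex term, with the lowest 50% of genes left out and with array weights, 1 with no variance trend, with robust variances and with all clusters tested, and 0 with female arrays alone and with only the 2 groups compared. Leaving out single arrays gave 0 to 4: 0 without mutant tamoxifen 3, control 2 or control 3, 1 without mutant tamoxifen 2 or any mutant NaCl array, and 4 without mutant tamoxifen 1. Female arrays alone hold 1 control, which is assumed to vary like the other groups. Over all alternatives H2-Aa ranged from -0.95 to -0.66 (adjusted p 0.00726 to 0.129) and Cd74 from -0.72 to -0.45 (0.0159 to 0.257), and H2-Ab1 and H2-DMa were called in 5 and 6 alternatives. Ciita against controls ranged from -0.17 to 0.12 without single arrays and turned sign, to 0.04 with female arrays alone, 0.12 without mutant tamoxifen 4 and 0.06 without control 3, with adjusted p of 0.963, 0.603 and 0.876. Over all genes, 4915 were called against controls, and 1385 with female arrays alone, 2517 without mutant tamoxifen 3 and 3031 without control 2; between the reference groups 0 were called, and at most 3. The cause was not tested. Median centring and the second quantile normalisation changed no direction among the 6 genes. No paired analysis was made, because each array was of a different animal and the labels give no pairs. With 3 control mice, differences of the size seen for H2-Eb1 were not resolved.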

Other observations

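Class I presentation, which loads peptides from the cytosol, was described with a list of 13 genes, of which 10 were measured. H2-K1, H2-D1 and H2-T23 have no transcript cluster of their own symbol alone and are not among them. Against mutant NaCl 6 of 10 fell and 0 rose in mutant tamoxifen (median -0.37), beside 10.7% and 12.5% of all genes. Tapbp, the tapasin bridge of the loading complex, fell by 0.49 (limma adjusted p = 0.00053), Tap2, a subunit of the peptide transporter, by 0.46 (adjusted p = 0.002) and B2m, the class I light chain, by 0.28 (adjusted p = 0.00316). Psmb8, an immunoproteasome subunit named, like B2m, after its values were seen, fell by 0.80 (adjusted p = 0.0141), from 9.48 to 9.99 in mutant NaCl to 8.57 to 9.38 in mutant tamoxifen. Its controls read 8.76 to 9.50, and the difference of -0.22 from them did not pass (limma adjusted p = 0.508). Of the 10 genes, 6 lay wholly above the controls in mutant NaCl, beside 2.82% of all genes. The list median there was 0.26, and 0 of 10 passed in limma, beside 0% of all genes. Against controls Tapbp, Tap2 and B2m fell and 3 of 10 rose, Calr, named after its values were seen, Erap1, a peptide trimming enzyme, by 0.39 (adjusted p = 0.00587) and the chaperone Pdia3 by 0.21 (adjusted p = 0.0138). Erap1 and Pdia3 lay wholly above the controls in mutant NaCl too, by 0.35 and 0.10, without passing (limma adjusted p = 0.459 and 0.642), and Calr overlapped them. Against mutant NaCl, Erap1 and Pdia3 differed by 0.04 and 0.11 and did not pass (adjusted p = 0.734 and 0.113). Against controls 11.8% of all genes fell and 12.9% rose. The lowest array of the class I list was mutant tamoxifen array 4 at a mean level of 10.32, as for class II.

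Cxcl9, a chemokine induced by interferon γ and named after its values were seen, read 8.68, 8.07, 7.91 and 7.40 in mutant tamoxifen, 7.86, 7.22 and 7.79 in controls, and 9.20, 8.75, 8.39 and 9.16 in mutant NaCl. Mutant NaCl lay above every control array, and mutant tamoxifen overlapped both groups. It fell by 0.86 against mutant NaCl (limma adjusted p = 0.0343), and the difference of 1.36 between mutant NaCl and controls did not pass (adjusted p = 0.459). Of 8 plasma cell markers 3, Prdm1, Fkbp11 and Sdc1, were higher in mutant tamoxifen against each reference group, beside 12.9% and 12.5% of all genes, and 5 passed neither test. Prdm1, which drives plasma cell differentiation and is also made in epithelium, rose by 0.77 and 0.69 (adjusted p = 0.000577 and 0.000394). Of innate lymphoid cell markers 5 of 8 were measured and 1 fell in each comparison, beside 11.8% and 10.7% of all genes. It was Kit, by 0.42 and 0.41 (limma adjusted p = 0.037 and 0.0251). The other 4 passed neither test, so a fall was seen for Kit alone and not for the list.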
